A study of Mus musculus with 4 samples.

Results

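Bone morphogenetic proteins (BMPs) are secreted growth factors that signal through paired serine/threonine kinase receptors to SMAD proteins. 10 genes of this pathway were described, chosen by name from the platform annotation: the inhibitory SMADs Smad6 and Smad7, the signal-carrying Smad1, the receptor genes Acvrl1, Bmpr1a and Bmpr2, and the target genes Id1, Id2, Id3 and Id4. They make up 10 of 18193 genes on the array and 25 of the 45037 probe sets tested. Each gene stands below for its probe set with the highest mean signal, and 3 of the 10 (Smad6, Id1 and Id3) had a single one.

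RNA came from cells of lymph nodes that drained tumours grown from human 293 embryonic kidney cells under the skin of female SCID/NOD mice aged 6 to 8 weeks. The metastatic group drained 293-VEGF-D tumours, whose cells overexpress the lymphatic growth factor VEGF-D, and the non-metastatic group drained 293-Apex tumours. Nodes of 1 to 5 mice were pooled for a preparation, and each group had 2 biological replicates with 1 Affymetrix array each. The axillary node was taken after 3 to 4 weeks, the cells were briefly cultured in endothelial growth medium, and podoplanin-positive cells were then selected with magnetic beads. Metastatic nodes were used only if visibly enlarged, and the sorting label gives depletion of tumour cells and leukocytes before culture for the metastatic preparations and no depletion for the non-metastatic ones, although the growth protocol does not separate the groups. VEGF-D overexpression, node size, depletion and metastasis cannot be told apart in this design.

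The selection was made to enrich endothelium, and some defining markers of that lineage were dim. Of 7 measured lymphatic endothelial markers, 3 lay under the median signal of all probe sets (5.95 on the log2 scale), among them Prox1, the defining transcription factor of that lineage. Of 8 blood endothelial markers, 4 did so, Pecam1 and Cdh5 included. Cdh5 did so narrowly in its mean over the 4 arrays (5.87), and read 6.76 on non-metastatic replicate 1. The others of both lists, among them Flt4 and Kdr, lay above the median signal. Of all 18193 genes, 6271 lay under it. Probes differ in how strongly they bind, so a dim probe set does not show that a cell type was absent, and levels of different markers give no cell proportions. Podoplanin itself (Pdpn), a protein that lymph node fibroblasts share with lymphatic vessels, read 10.89 and 10.83 on the metastatic arrays, against 10.35 and 10.35 on the non-metastatic ones. Of the 7 lymphatic markers 3 were higher and 4 lower in the metastatic group. The lowest was Lyve1, at 6.32 and 4.23 on the metastatic arrays, against 8.26 and 7.80 on the non-metastatic ones (difference -2.76, SE 0.64). In bulk RNA such as this, fewer cells of one type and less RNA per cell cannot be told apart.

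In the BMP pathway, a ligand brings together type I receptors (Acvrl1, also called ALK1, and Bmpr1a, or ALK3) with type II receptors such as Bmpr2. The activated type I receptor phosphorylates SMAD1 and its relatives, which enter the nucleus with SMAD4 and switch on targets that include the Id genes, Smad6 and Smad7. Id proteins hold basic helix-loop-helix transcription factors away from DNA, and SMAD6 and SMAD7 feed back to dampen the signal. In endothelium ALK1 is the main receptor of circulating BMP9, and its loss in people causes vascular malformations.

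The start regions of Smad6, whose groups stood furthest apart of the 10 genes, and of Id2, Id3 and Id4, whose metastatic arrays lay furthest apart, show which SMAD-binding letters each holds. The windows run from 250 bases before to 50 after the gene's start, come from RefSeq (GRCm38.p6) and were read for 7 of the 10 genes. Id1 and Acvrl1 had no entry, and Smad7 was not looked up, so its window is not described. Capitals mark GGCGCC, a core that BMP-activated SMADs bind, and GTCT on either strand, a shorter element bound by SMADs.
Smad6 (chr9:64022010-64022309, minus strand): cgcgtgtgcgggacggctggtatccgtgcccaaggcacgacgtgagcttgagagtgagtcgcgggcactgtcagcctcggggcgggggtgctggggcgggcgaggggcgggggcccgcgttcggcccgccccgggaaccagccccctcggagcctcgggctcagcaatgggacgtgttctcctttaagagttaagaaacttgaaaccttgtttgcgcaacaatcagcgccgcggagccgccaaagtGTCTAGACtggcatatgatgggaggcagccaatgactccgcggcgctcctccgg
Id2 (chr12:25096043-25096342, minus strand): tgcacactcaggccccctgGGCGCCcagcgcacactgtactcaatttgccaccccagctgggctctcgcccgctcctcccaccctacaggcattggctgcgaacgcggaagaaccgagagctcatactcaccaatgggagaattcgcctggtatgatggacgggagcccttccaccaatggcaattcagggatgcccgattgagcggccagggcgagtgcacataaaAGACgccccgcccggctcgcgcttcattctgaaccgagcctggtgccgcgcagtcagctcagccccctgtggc
Id3 (chr4:136143572-136143871, plus strand): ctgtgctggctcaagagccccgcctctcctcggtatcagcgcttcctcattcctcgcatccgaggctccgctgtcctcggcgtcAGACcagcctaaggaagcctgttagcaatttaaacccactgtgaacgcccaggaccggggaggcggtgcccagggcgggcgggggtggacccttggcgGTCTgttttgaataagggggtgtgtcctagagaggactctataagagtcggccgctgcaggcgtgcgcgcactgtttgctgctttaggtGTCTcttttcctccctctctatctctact
Id4 (chr13:48260866-48261165, plus strand): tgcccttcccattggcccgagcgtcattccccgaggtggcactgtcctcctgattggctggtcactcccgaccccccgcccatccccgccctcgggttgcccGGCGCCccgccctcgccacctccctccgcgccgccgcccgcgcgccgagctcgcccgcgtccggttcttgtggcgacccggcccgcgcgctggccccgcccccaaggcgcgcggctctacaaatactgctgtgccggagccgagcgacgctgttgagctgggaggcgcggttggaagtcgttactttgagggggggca

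In the Smad6 window 2 copies of GTCT on opposite strands join into the palindrome GTCTAGAC, which spans the start with 4 bases on each side. This palindrome was looked for after the window had been seen, and 0.213% of 32851 mouse windows of the same kind hold it. The shorter GTCT is in 88.0% of them and in 4 of the 7 windows of these genes. GGCGCC is in 11.9% of all windows and in 4 of the 7 (Id2, Id4, Bmpr1a and Bmpr2), and GGCGCC followed by GTCT after 5 bases is in 0.0731% of all windows and in 0 of the 7. These matches describe letters in a window and carry no test.

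The comparison asks which of these genes differ between nodes draining metastatic and non-metastatic tumours. Smad6 and Acvrl1 had lower signal in the metastatic group by more than the gap between replicate arrays. Of all genes, 22.6% had a group difference, in either direction, larger than both gaps between replicates. Smad1 and Bmpr2 differed by less than the gap within either group, and Bmpr1a by less than the gap between the metastatic arrays. All 4 Id genes had a lower mean in the metastatic group, yet their arrays overlapped between the groups. None of the 10 genes passed limma with Benjamini-Hochberg adjustment over the 45037 probe sets, where 0% of probe sets and 0% of genes were called. The smallest adjusted p among the 10 was 0.343 (limma), for Smad6.

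**Figure D1:**
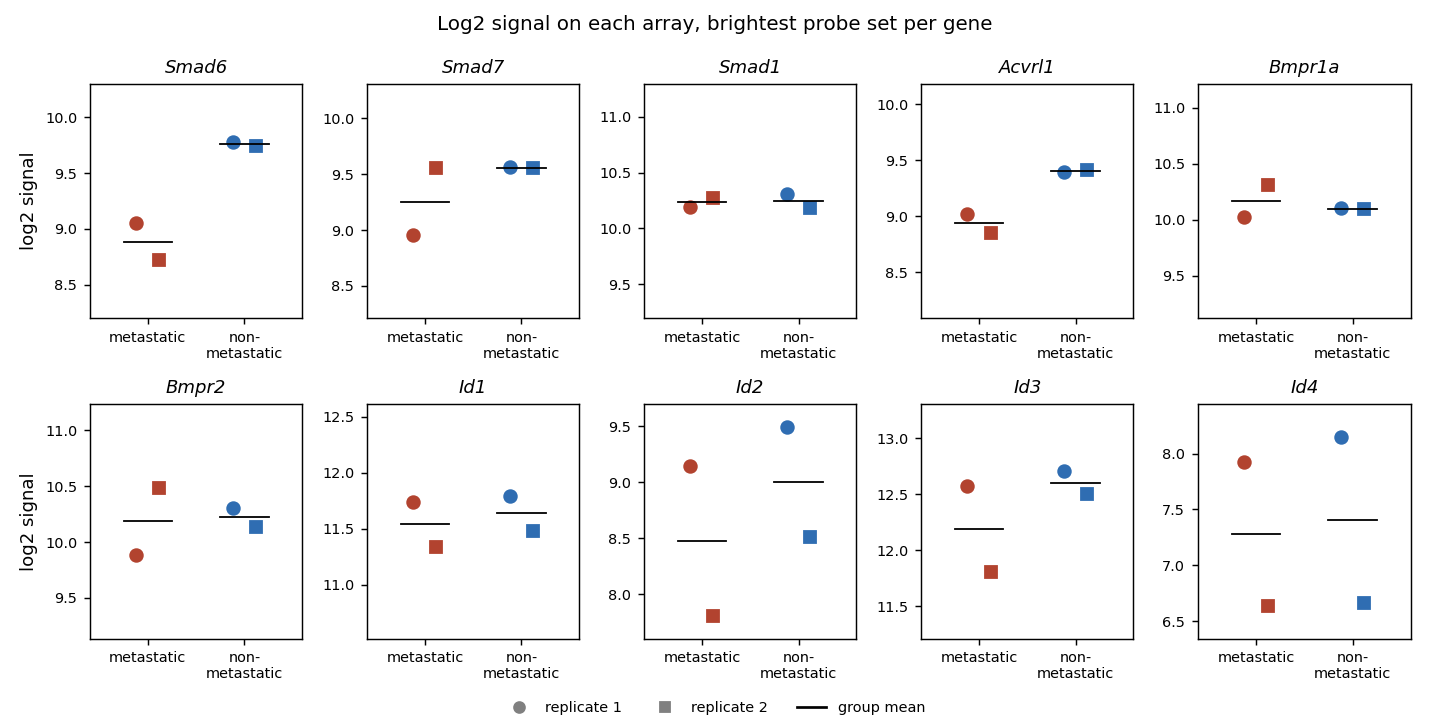
Log2 signal (vertical axis, a span of equal length in every panel) of the 10 genes on the 2 metastatic arrays (left) and 2 non-metastatic arrays (right), with replicate 1 as a circle, replicate 2 as a square and the group mean as a line. The arrays of Smad6 and Acvrl1 separate by group, while those of Id2 and Id4 lie from 0.99 to 1.48 log2 units apart within each group.

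Smad6, which blocks BMP type I receptors and SMAD1 and is itself switched on by BMP signals, had log2 signals of 9.05 and 8.72 on the metastatic arrays, against 9.78 and 9.74 on the non-metastatic arrays. Both metastatic arrays lay below both non-metastatic ones, with a gap of 0.69 between the nearest arrays of the groups. The metastatic arrays averaged 8.89 ± 0.23 and the non-metastatic arrays 9.76 ± 0.02 (SD, n = 2 each). The difference was -0.88 (SE 0.14, 95% interval -1.23 to -0.52), or 1.84-fold lower signal, and its p ranked 143 among all probe sets (limma adjusted p = 0.343). The value lay between -1.04 and -0.71 when any 1 array was left out.

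Smad7, the other inhibitory SMAD, which dampens TGF-beta as well as BMP signals, did not share this pattern. Its signals were 8.96 and 9.55 on the metastatic arrays, against 9.56 and 9.55 on the non-metastatic arrays. One metastatic array was low while the other lay 0.00106 log2 units below the nearer non-metastatic array. The difference was -0.30 (SE 0.21, limma adjusted p = 0.944). It stood at -0.01 without metastatic replicate 1 and at -0.60 without metastatic replicate 2. The second Smad7 probe set had 8.23 and 8.84 on the metastatic arrays, against 8.79 and 8.75 on the non-metastatic arrays, so that the same single array was low and the groups overlapped.

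Smad1, which carries the BMP signal to the nucleus, read 10.19 and 10.28 on the metastatic arrays, against 10.31 and 10.18 on the non-metastatic arrays. The groups overlapped and the difference was -0.01 (SE 0.12), with a 95% interval of -0.30 to 0.27. Its other probe sets stood at -0.03 and -0.13, both with overlapping groups. With arrays centred on their medians the difference turned to 0.02.

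Among the receptors, Acvrl1 had lower metastatic signal on both of its probe sets. The brighter one had 9.02 and 8.85 on the metastatic arrays, against 9.40 and 9.42 on the non-metastatic arrays. The other had 7.73 and 7.77 on the metastatic arrays, against 8.44 and 8.03 on the non-metastatic arrays. On each probe set both metastatic arrays lay below both non-metastatic ones. The differences were -0.47 (SE 0.12, 95% interval -0.76 to -0.18) and -0.49 (SE 0.16), and neither passed (limma adjusted p = 0.536 and 0.714). The brighter probe set corresponds to 1.39-fold lower signal, and its name carries a mark for several transcripts, which the other lacks.

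Bmpr1a, a type I receptor for BMP2 and BMP4 found in many cell types, had 10.02 and 10.31 on the metastatic arrays, against 10.10 and 10.10 on the non-metastatic arrays. The 2 metastatic arrays stood on either side of the non-metastatic ones, and the difference was 0.07 (SE 0.14, 95% interval -0.27 to 0.40). Its other 5 probe sets differed from this one: 3 of them, at 0.16, 0.21 and 0.29, had both metastatic arrays above both non-metastatic ones. The 2 remaining ones were dim, with mean signals of 5.30 and 5.28, and stood at 0.26 and -0.07. The dimmest, at -0.07, had both metastatic arrays below both non-metastatic ones. By their brightest probe sets, 17.2% of all genes were higher without overlap and 17.3% lower. No Bmpr1a probe set passed (smallest limma adjusted p 0.793), and the direction of the brightest turned to -0.07 without metastatic replicate 2.

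Bmpr2, the type II receptor mutated in inherited pulmonary arterial hypertension, had 9.88 and 10.49 on the metastatic arrays, against 10.31 and 10.14 on the non-metastatic arrays. The metastatic arrays bracketed the non-metastatic ones, and the difference was -0.04 (SE 0.21, 95% interval -0.56 to 0.49). The other probe sets stood at -0.25 and -0.15, with overlapping groups, and the second of them was dim (4.78). Without metastatic replicate 1 the value of the brightest was 0.27, and without metastatic replicate 2 it was -0.33.

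**Figure D2:**
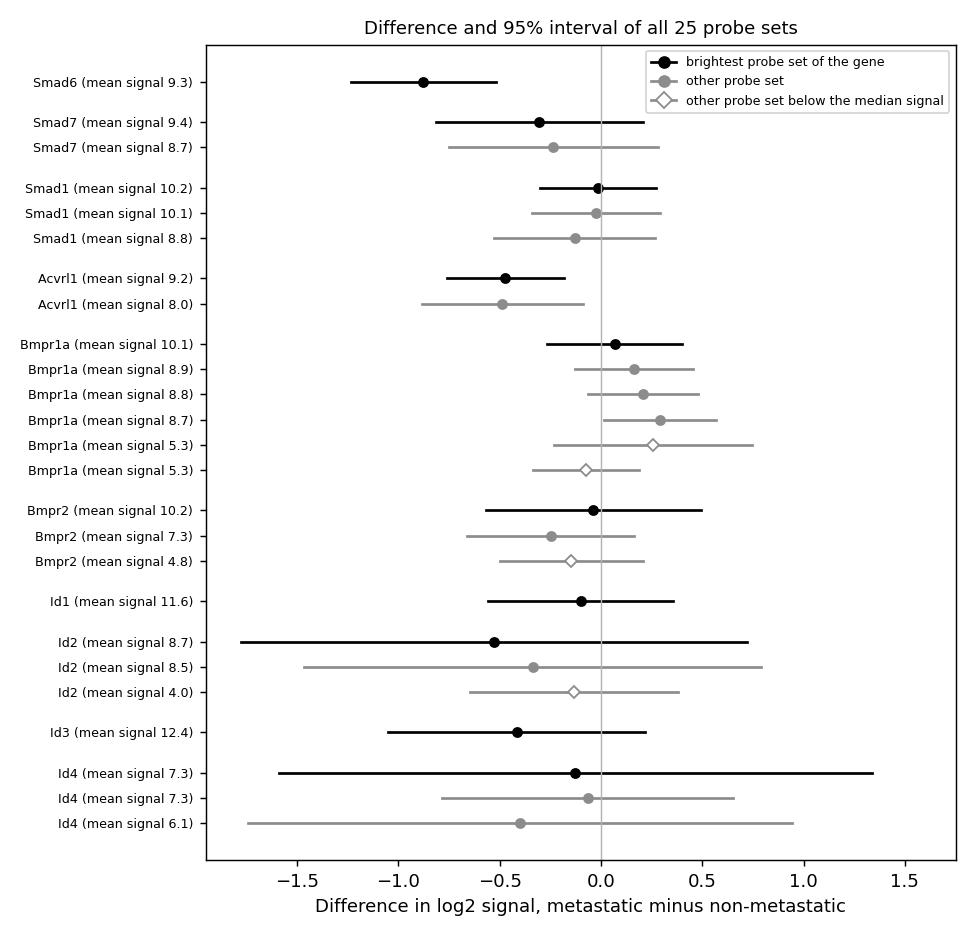
Difference in log2 signal (horizontal axis, metastatic minus non-metastatic) with its 95% interval from limma for all 25 probe sets, labelled by gene and mean log2 signal, in black for the brightest of a gene and with open diamonds where the mean lies under the median of all probe sets. 20 differences are negative and 5, all of Bmpr1a, are positive; the intervals of Smad6, of both Acvrl1 probe sets and of 1 Bmpr1a probe set leave out 0 before any adjustment.

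Id1, Id2 and Id4 varied more between the arrays of either group than between the group means, and Id3 did so between the metastatic arrays. Id1, which restrains differentiation of endothelial and other cells, had 11.74 and 11.34 on the metastatic arrays, against 11.80 and 11.48 on the non-metastatic arrays. The difference was -0.10 (SE 0.18), smaller than the gap of 0.40 between the metastatic arrays and of 0.31 between the non-metastatic ones. Id1 had a single probe set.

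Id2, needed for the development of lymph nodes and of innate lymphoid cells, had 9.14 and 7.81 on the metastatic arrays, against 9.50 and 8.51 on the non-metastatic arrays. Each group held a high and a low array, and the metastatic array with the higher value exceeded the lower non-metastatic one. The difference was -0.53 (SE 0.50, 95% interval -1.78 to 0.72, limma adjusted p = 0.966). The second probe set stood at -0.34 (SE 0.46), with gaps of 1.27 within the metastatic and 0.79 within the non-metastatic group. The third, at -0.13, was dim (mean 4.00). Leaving out metastatic replicate 1 gave -1.19 for the brightest, and leaving out metastatic replicate 2 gave 0.14.

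Id3, which acts beside Id1 in growing vessels, had 12.57 and 11.81 on the metastatic arrays, against 12.71 and 12.50 on the non-metastatic arrays. The second metastatic array was the lowest and the other 3 lay within 0.21 of each other. The difference was -0.42 (SE 0.26, limma adjusted p = 0.931), and it was -0.03 without metastatic replicate 2 and -0.81 without metastatic replicate 1.

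Id4, best known from the nervous system and the mammary gland, had 7.92 and 6.64 on the metastatic arrays, against 8.15 and 6.67 on the non-metastatic arrays. The group means differed by -0.13 (SE 0.59), while the arrays differed by 1.29 within the metastatic and by 1.48 within the non-metastatic group. Its 2 other probe sets stood at -0.07 (SE 0.29) and -0.40 (SE 0.54), again with wide gaps within both groups. The 95% interval of the brightest, -1.59 to 1.34, leaves room for a difference in either direction.

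For all 4 Id genes, and for 7 of their 8 probe sets, the array labelled replicate 2 was the lower one in both groups. Of all genes, 25.3% had that arrangement, whatever the size of the gaps. In all 4 Id genes both gaps were over 0.2 log2 units, beside 4.9% of all genes. The smallest of these Id gaps, 0.21 for Id3, passes that cut narrowly. The labels do not say that arrays of one number share an animal, a batch or a day. Mean log2 signals of 4 marker lists were arranged likewise, that of the leukocytes given below among them: the blood endothelial list read 6.12 and 5.79 on the metastatic arrays, against 6.55 and 6.19 on the non-metastatic arrays. The lymphatic list read 6.60 and 6.24 on the metastatic arrays, against 6.76 and 6.55 on the non-metastatic arrays. The fibroblast list read 11.63 and 11.42 on the metastatic arrays, against 11.61 and 11.40 on the non-metastatic arrays. The part of these in the Id values was not tested.

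**Figure D3:**
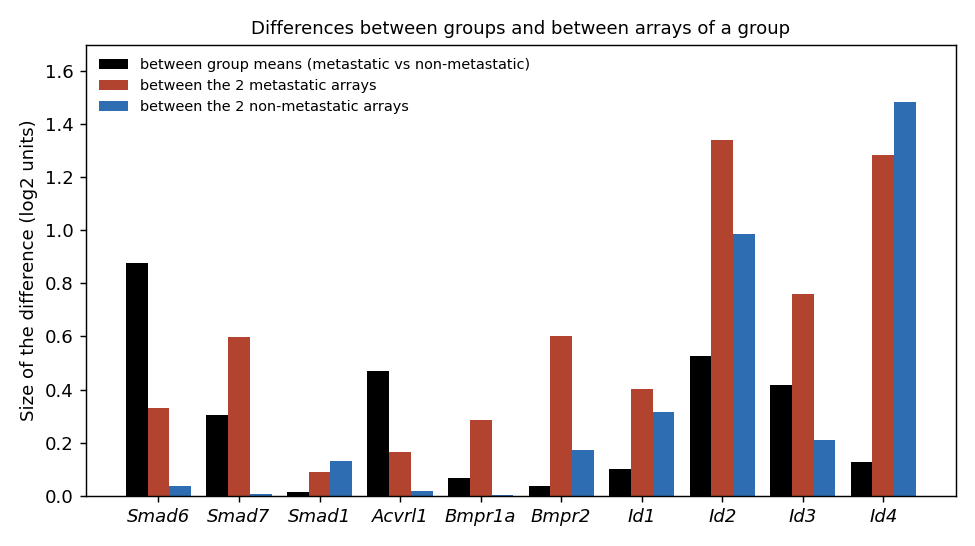
Size of the difference in log2 units (vertical axis, from 0) between the group means (black), between the 2 metastatic arrays (red) and between the 2 non-metastatic arrays (blue) for the 10 genes. The group difference is the tallest bar for Smad6 (0.88, beside 0.33 and 0.04) and Acvrl1 (0.47, beside 0.17 and 0.02), and it is the shortest or the middle bar for the other 8.

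Over the 10 genes, 9 differences were negative and 1 was positive, with a median of -0.22, beside a median of 0.00 over all genes. The median became -0.43 when metastatic replicate 1 was left out and -0.07 when metastatic replicate 2 was. It became -0.38 when non-metastatic replicate 2 was left out and 0.0055 when non-metastatic replicate 1 was. In 3 of the 10 (Smad6, Smad7 and Acvrl1) both metastatic arrays lay below both non-metastatic ones, beside 17.3% of all genes, and in 0 of the 10 above both, beside 17.2%; for Smad7 that order rests on 0.00106 log2 units. The group difference exceeded both gaps between replicates in 2 of the 10, beside 22.6% of all genes, a share near the background. At an unadjusted p under 0.05, limma gave 2 of the 10 as lower (Smad6 and Acvrl1), beside 4.07% of all genes, and 0 as higher, beside 2.63%. Without metastatic replicate 1, Id2 stood at -1.19, Id3 at -0.81 and Smad7 at -0.01. Without metastatic replicate 2 these stood at 0.14, -0.03 and -0.60. When any 1 array was left out, Smad6 lay between -1.04 and -0.71 and Acvrl1 between -0.56 and -0.39. With 2 arrays a group, the smallest p that an exact permutation test can reach is 0.333 (two-sided).

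Acvrl1 and Smad6 are both found in endothelium. Of the marker lists, the lymphatic and fibroblast ones given above overlapped between the groups in mean log2 signal. Both metastatic arrays lay below both non-metastatic ones in the mean log2 signal of the blood endothelial list given above. The same held for the smooth muscle and pericyte list, at 7.93 and 8.12 on the metastatic arrays, against 8.48 and 8.71 on the non-metastatic arrays. It held for the leukocyte list too, at 5.61 and 5.53 on the metastatic arrays, against 5.97 and 5.68 on the non-metastatic arrays. The epithelial list read 5.44 and 5.44 on the metastatic arrays, against 5.92 and 6.07 on the non-metastatic arrays. All 6 of its genes were lower in mean, with the desmosome gene Perp as the extreme at -2.64 (SE 0.20). The others lay between -0.37 (SE 0.20, Krt14) and -0.03 (SE 0.11, Krt5). The groups overlapped for Krt14, Epcam, Dsp and Krt5, and 3 of the 6 genes lay under the median signal. Within the blood endothelial list 4 of 8 genes were higher and 4 lower, and the sialomucin gene Emcn was the extreme at -2.53 (SE 0.29), while the VEGF receptor gene Kdr stood at 0.12 (SE 0.11). In the smooth muscle list 7 of 8 were lower. Of 7 leukocyte markers 4 were higher and 3 lower, with a median difference of 0.00, and 4 of the 7 lay under the median signal. The lysozyme gene Lyz2 was the extreme at -1.47 (SE 0.44), with 8.29 and 6.86 on the non-metastatic arrays. Itgam, which was dim, stood at 0.28 (SE 0.14) and Cd74 at 0.16 (SE 0.12). Ptprc (CD45), at 0.04 (SE 0.13), lay under the median signal on every array. The part of these cells in the values of Smad6 and Acvrl1 was not tested.

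Of 45 further genes around the pathway, 44 were measured, and 27 were higher and 17 lower, with a median difference of 0.05. None passed over all probe sets. At an unadjusted p under 0.05, 3 were higher and 4 lower in limma, beside the same 2.63% and 4.07% of all genes. The count of 7 became 1 without non-metastatic replicate 2 and 12 when all probe sets of a gene were averaged.

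**Figure D4:**
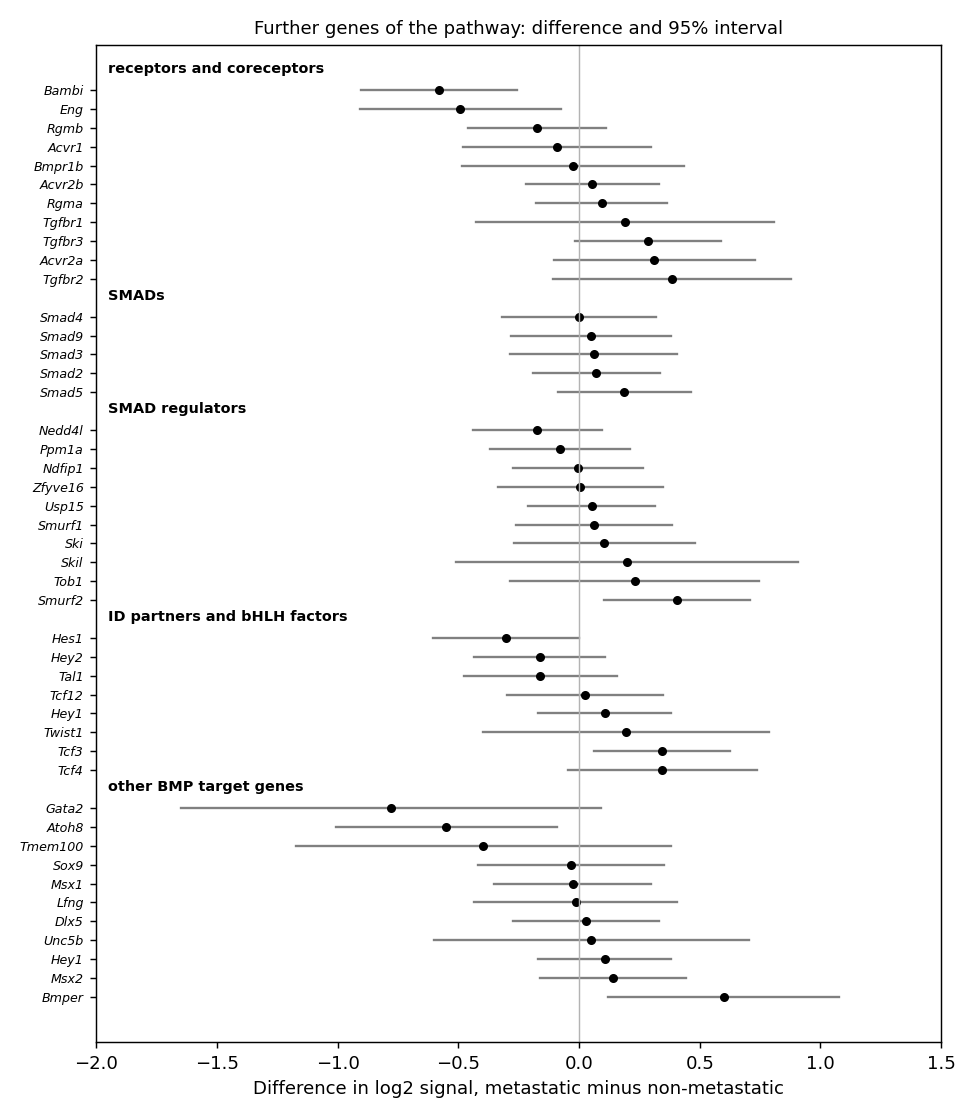
Difference in log2 signal (horizontal axis, metastatic minus non-metastatic) with its 95% interval from limma, by the brightest probe set, for the 44 further genes in 5 lists (Hey1 is in 2 of them). Bambi, Eng, Hes1 and Atoh8 have intervals wholly below 0, and Smurf2, Tcf3 and Bmper wholly above 0, before any adjustment.

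Of 11 further receptors and coreceptors, 6 were higher and 5 lower. Bambi, a decoy receptor without a kinase that blocks BMP and TGF-beta signals, had 7.39 and 7.22 on the metastatic arrays, against 7.79 and 7.99 on the non-metastatic arrays. Both metastatic arrays were lower, with a difference of -0.58 (SE 0.13, limma adjusted p = 0.477). Eng (endoglin), the coreceptor that works with ALK1 in endothelium, had 9.82 and 10.26 on the metastatic arrays, against 10.57 and 10.50 on the non-metastatic arrays. Its difference was -0.49 (SE 0.17), and its second probe set stood at -0.75 (SE 0.16), so both Eng probe sets were lower on both metastatic arrays, as both of Acvrl1 were, and none passed (smallest limma adjusted p 0.426 for Eng). Without metastatic replicate 1 the first Eng value was -0.28.

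The other type I and type II receptors lay near 0 or above it. Acvr1 (ALK2) stood at -0.09 (SE 0.16), Bmpr1b (ALK6), which was dim, at -0.02 (SE 0.19) and Acvr2b at 0.06 (SE 0.11). Acvr2a, a type II receptor shared by activins and BMPs, stood at 0.31 (SE 0.17), and at 0.46 (SE 0.12) on its second probe set. Leaving out non-metastatic replicate 2 gave 0.10 for the first, and leaving out non-metastatic replicate 1 gave 0.53. The BMP coreceptors of the repulsive guidance family, Rgma and Rgmb, stood at 0.09 (SE 0.11) and -0.18 (SE 0.12), and Rgma at 0.043 without non-metastatic replicate 1.

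The TGF-beta receptor genes ran the other way from Acvrl1 in sign. Tgfbr2 stood at 0.39 (SE 0.20), Tgfbr3 (betaglycan) at 0.29 (SE 0.12) and Tgfbr1 (ALK5) at 0.19 (SE 0.25). Their dimmer probe sets stood at 0.73 (SE 0.19) and 0.16 (SE 0.11) for Tgfbr2, 0.62 (SE 0.11) for Tgfbr3, and 0.65 (SE 0.17) and 0.56 (SE 0.14) for Tgfbr1. None of these passed. Without non-metastatic replicate 2 the brightest Tgfbr1 probe set turned to -0.19 and that of Tgfbr2 stood at 0.21, and Tgfbr2 had 0.16 without metastatic replicate 1 and 0.60 without metastatic replicate 2.

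The other 5 SMAD genes had differences from 0.00 to 0.19 on their brightest probe sets. Smad4, the partner of all signal-carrying SMADs, stood at 0.00 (SE 0.13, 95% interval -0.32 to 0.32), the BMP-activated Smad5 at 0.19 (SE 0.11) and the dim Smad9 at 0.05 (SE 0.13). The dimmer Smad4 probe sets stood at 0.22 (SE 0.18) and 0.14 (SE 0.17). Those of Smad5 stood at 0.12 (SE 0.12) and -0.14 (SE 0.12), the latter lower on both metastatic arrays. Smad2 and Smad3 of the TGF-beta branch stood at 0.07 (SE 0.11) and 0.06 (SE 0.14), and the 2 dimmer Smad3 probe sets at 0.40 (SE 0.11) and -0.01 (SE 0.11). The sign of Smad4 was negative on the deposited values, and that of Smad2 on its probe set without a mark for several transcripts.

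Of 10 SMAD regulators, 7 were higher and 3 lower. Smurf2, a ubiquitin ligase that marks SMADs and their receptors for destruction, had 11.35 and 11.55 on the metastatic arrays, against 11.04 and 11.04 on the non-metastatic arrays. Both metastatic arrays were higher, by 0.41 on average (SE 0.12), and its 2 other probe sets stood at 0.35 (SE 0.11) and 0.49 (SE 0.12). The smallest limma adjusted p of the 3 was 0.553. Nedd4l, a related ligase, stood at -0.17 (SE 0.11), and at 0.015 as the mean over its probe sets.

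Id proteins bind the E proteins, and of 8 E protein and related helix-loop-helix genes 5 were higher and 3 lower. Tcf3, which encodes the E proteins E12 and E47, had 8.87 and 8.98 on the metastatic arrays, against 8.54 and 8.63 on the non-metastatic arrays. All 3 of its probe sets were higher on both metastatic arrays, at 0.34 (SE 0.11), 0.53 (SE 0.14) and 0.48 (SE 0.20), and none passed (smallest limma adjusted p 0.590). Hes1, a target of Notch, stood at -0.30 (SE 0.12), and at -0.20 without metastatic replicate 2.

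Of 11 measured genes that BMPs are known to induce in some cell types, 5 were higher and 6 lower. Atoh8, a helix-loop-helix gene that BMP9 and ALK1 induce in endothelium, had 8.33 and 7.81 on the metastatic arrays, against 8.62 and 8.62 on the non-metastatic arrays. Both metastatic arrays were lower, with a difference of -0.55 (SE 0.18, limma adjusted p = 0.720), which was -0.30 without metastatic replicate 2. Bmper, a secreted BMP-binding protein, had 11.13 and 11.31 on the metastatic arrays, against 10.88 and 10.37 on the non-metastatic arrays, a difference of 0.60 (SE 0.19, limma adjusted p = 0.699) that was 0.34 without non-metastatic replicate 2.

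Upstream of these genes, the ligand Bmp4 stood at -2.65 (SE 0.16) and the secreted antagonist Grem1 at -1.17 (SE 0.30), with limma adjusted p of 0.0863 and 0.562. Of the 11 measured ligand and antagonist genes, 2 were higher and 9 lower. Neither Bmp4 nor Grem1 passed with all arrays, no block and no intensity trend. Bmp4 passed without metastatic replicate 1 (limma adjusted p = 0.0323) and with an intensity trend and robust moderation (adjusted p = 0.0269).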

How the data were processed

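The log2 signal per probe set of 4 Affymetrix arrays was deposited by the authors. The scale was read from the values (3.10 to 14.87). How probes were summarised and normalized is not stated in the labels. Array medians differed by 0.116 log2 units, so arrays were quantile normalized, without the 64 control probe sets of 45101. Of the rest, 34945 had 1 gene symbol in the platform annotation, 932 several and 9160 none. For 34741 of the 34945 the current symbol was looked up by Entrez gene number, whether or not it differed. limma (lmFit, eBayes, two-sided, 2 residual degrees of freedom) was fitted on all 45037 probe sets as metastatic minus non-metastatic, adjusted by Benjamini-Hochberg and called under 0.05. Without detection calls, a dim probe set is not known to be absent. With 4 arrays, precision is limited by their number.

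The genes and lists were chosen with earlier results of these data known. Named were all 10 genes with every probe set, the further receptors and SMADs, and the 2 genes with the smallest p of each other pathway list. Markers, and other probe sets of named genes, were picked for the text after their values were seen. Groups came from sample titles. Alternatives were the deposited values, median centring, brighter probe sets, trend and robust moderation, a replicate block, each array left out, the average over a gene's probe sets, and probe sets without a several-transcript mark. A planned comparison of protein sequences was not run. The scripts were tested on simulated data. R 4.3.3, limma 3.58.1, Python 3.11.15 and matplotlib 3.10.9 were used.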

Additional observations from a re-analysis of the deposited data

How the results depend on the processing

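No member gene passed under any alternative. Smad6, Smad7, Id3 and Acvrl1 kept a negative sign under all of them, and Id1, Id2, Id4, Smad1 and Bmpr2 did not. Bmpr1a, positive with all arrays, turned negative only without metastatic replicate 2. Median centring put Smad1 at 0.018. When 1 array was left out, the differences ranged from -0.079 to 0.052 for Smad1, -0.30 to 0.10 for Id1, -1.19 to 0.14 for Id2, -0.87 to 0.61 for Id4, -0.074 to 0.21 for Bmpr1a and -0.33 to 0.27 for Bmpr2, and the median of the 10 genes from -0.43 to 0.0055. Those fits have 1 residual degree of freedom and take the spread of the lone array's group from the other group. They gave 0 to 65 probe sets and 0 to 34 genes called (65 and 34 without metastatic replicate 1), 1 to 4 member genes and 1 to 9 further genes at an unadjusted p under 0.05, against 0, 0, 2 and 7 with all arrays. Probe sets at that p numbered 1348 to 6407, against 2731. Trend and robust moderation called 5 probe sets and 4 genes, none of them a member. With the replicate number as a block, although the labels do not say that it pairs arrays, limma called 145 probe sets and 93 genes, and 4 member genes had an unadjusted p under 0.05 against 2 without the block, with Id2 and Id3 added to Smad6 and Acvrl1. Their limma adjusted p with the block were 0.272 for Id2, 0.526 for Id3 and 0.0725 for Smad6, and Bmp4 (0.0033) and Grem1 (0.0214) passed. The gaps between replicates 1 and 2 correlated at 0.25 between the groups over all probe sets. Averaging all probe sets of a gene put 12 further genes past an unadjusted p of 0.05, and turned Rgmb to 0.017, Acvr2b to -0.0062 and Nedd4l to 0.015. Smad4 was -0.014 on the deposited values, and Smad2 -0.024 on its probe set without a several-transcript mark. Without 1 array the ranges were -0.28 to 0.10 for Acvr1, -0.26 to 0.21 for Bmpr1b, -0.084 to 0.18 for Smad9, -0.059 to 0.18 for Smad3, -0.12 to 0.12 for Smad4 and -0.19 to 0.57 for Tgfbr1. The causes of these changes were not tested.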
